A study of Mus musculus with 25 samples.

Results

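The regulators of skeletal muscle fiber type and fetal myogenesis Sox6, Tbx15, Nfix, Prox1, Ppargc1a, Nfatc1, Esrrg, Tead1, Tead4 and Vgll2, were examined for binding of the histone code reader Spin1 and for the histone mark H3K4me3. These 10 genes are taken by name, for their role in muscle, out of 26180 genes with a curated RefSeq transcript, and the rule uses no measured value. The series holds 25 samples, and the data used here are the ChIP-seq peak lists of 2 of them, 1 for Spin1 with 17106 peaks and 1 for H3K4me3 with 30763 peaks. Both came from primary myoblasts of C57BL/6 mice, given as the N substrain in the methods of the study, obtained by preplating of cells from the limbs of pups at postnatal day 10 and grown to about 70% confluency. The labels name no genetic change or treatment for these cells. The second sample is titled H3K4me3, while its antibody is labeled as directed against H3K4me. Cultured myoblasts are proliferating precursors that have not formed fibers, so the peaks do not show the state of these genes in slow or fast fibers. Not analysed here are the input library and 22 samples of RNA-seq.

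Each antibody was used on 1 library, so no difference below has a replicate check and none was tested. The lists give a position and a score for each peak, and the number of reads behind a score is unknown. MACS, the program that called the peaks, sets the score to −log10 of its p-value multiplied by 10. It piled up at 3100, a value reached or passed by 30.9% of peaks for Spin1 and 45.2% for H3K4me3, and peaks at this level cannot be ranked. A peak absent from a list was not detectable at the depth of its library. Promoters of the 6 myoblast markers, Myod1, Myf5, Pax7, Cdh15, Des and Myog, all carried both peaks. Of 4 fibroblast markers 3 carried both, with H3K4me3 alone at Tcf21. Among markers of endothelium, leukocytes, Schwann cells, adipocytes and neurons, Cdh5, Cd68, Sox10 and Rbfox3 had H3K4me3 alone and Pecam1, Ptprc and Adipoq had neither. How far fibroblasts in the culture entered the peaks below was not tested.

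Muscle fibers range from slow and oxidative to fast and glycolytic, and the precursors of the fetus switch from an embryonic to a fetal gene program before these types mature. Sox6 represses slow fiber genes, Prox1 and the calcineurin target Nfatc1 favor the slow program, Ppargc1a and Esrrg drive mitochondrial and oxidative genes, Tbx15 marks glycolytic fibers, and Nfix turns on the fetal program. Tead1 and Tead4 bind the MCAT element of muscle genes with Yap1, Wwtr1 or Vgll cofactors, of which Vgll2 is the form enriched in muscle. H3K4me3 marks active or poised promoters and Spin1 binds to this mark.

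A set of promoters shows the range of states found among these genes, from both peaks to none. The sequences are the 200 bases upstream of the start site on the strand of the gene, taken from RefSeq promoters on GRCm38, with each CpG in capitals. Sox6 is represented by both of its occupied start sites and by the first of its empty ones, on the minus strand at chr7:116038745-116038944, chr7:116031048-116031247 and chr7:115995087-115995286. Esrrg is represented by its start site with both peaks and its last start site with H3K4me3 alone, on the plus strand at chr1:187608806-187609005 and chr1:187997627-187997826. The upstream start site of Ppargc1a, on the minus strand at chr5:51567726-51567925, had neither peak, and the start site of Vgll2, on the plus strand at chr10:52022302-52022501, had both.
Sox6, first start site, both peaks: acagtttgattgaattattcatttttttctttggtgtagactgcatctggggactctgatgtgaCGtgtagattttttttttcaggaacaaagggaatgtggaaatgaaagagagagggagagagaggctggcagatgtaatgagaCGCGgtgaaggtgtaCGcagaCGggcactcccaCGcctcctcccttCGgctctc
Sox6, second start site, both peaks: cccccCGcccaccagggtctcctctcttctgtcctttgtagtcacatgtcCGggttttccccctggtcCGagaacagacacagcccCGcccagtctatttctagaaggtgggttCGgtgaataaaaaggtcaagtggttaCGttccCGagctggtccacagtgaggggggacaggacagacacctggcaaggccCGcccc
Sox6, upstream of the other empty sites, neither peak: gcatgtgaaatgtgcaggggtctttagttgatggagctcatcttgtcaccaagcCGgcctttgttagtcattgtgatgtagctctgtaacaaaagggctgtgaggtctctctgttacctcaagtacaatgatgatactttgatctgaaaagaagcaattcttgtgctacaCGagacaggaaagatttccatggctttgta
Esrrg, first start site, both peaks: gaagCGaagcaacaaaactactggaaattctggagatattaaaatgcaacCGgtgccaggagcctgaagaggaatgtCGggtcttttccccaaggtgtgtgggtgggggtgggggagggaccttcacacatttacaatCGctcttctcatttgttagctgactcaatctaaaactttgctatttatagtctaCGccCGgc
Esrrg, last start site, H3K4me3 only: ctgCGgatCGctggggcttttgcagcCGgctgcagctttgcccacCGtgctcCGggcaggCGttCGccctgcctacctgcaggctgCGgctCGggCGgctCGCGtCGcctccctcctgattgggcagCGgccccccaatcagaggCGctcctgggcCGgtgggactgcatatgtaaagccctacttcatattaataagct
Ppargc1a, upstream start site, neither peak: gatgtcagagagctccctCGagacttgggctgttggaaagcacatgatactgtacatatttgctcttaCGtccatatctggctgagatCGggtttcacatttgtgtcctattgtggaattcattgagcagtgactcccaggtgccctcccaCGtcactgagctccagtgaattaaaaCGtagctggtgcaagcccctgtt
Vgll2, both peaks: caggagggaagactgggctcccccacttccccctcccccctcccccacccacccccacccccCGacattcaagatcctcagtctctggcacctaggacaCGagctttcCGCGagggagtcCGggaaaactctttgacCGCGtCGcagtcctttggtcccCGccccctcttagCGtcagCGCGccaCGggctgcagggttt

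All 10 genes carried Spin1 and H3K4me3 at a promoter, defined as 1 kb on each side of a curated start site. Over all genes, Spin1 was at a promoter of 50.7%, H3K4me3 at a promoter of 61.9% and both at a promoter of 50.6%, or of 56.7% of the protein-coding genes. Requiring the center of the peak to lie in the window changed this count, with 6 of the 10 genes left for Spin1, 5 for H3K4me3 and 5 for both, while 46.5% of all genes kept Spin1 and 50.5% kept H3K4me3. With the 50% of each list with the highest scores, 8 genes kept Spin1, beside 38.1% of all genes. These shares were not matched on the number of promoters of a gene, and more promoters give more windows for a peak. That number was 2 or more for 6 of the 10 genes and for 9.85% of all genes. Esrrg and Ppargc1a, the regulators of oxidative metabolism, had the lowest best Spin1 scores of the 10, at 254.35 and 1195.3.

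**Figure D1:**
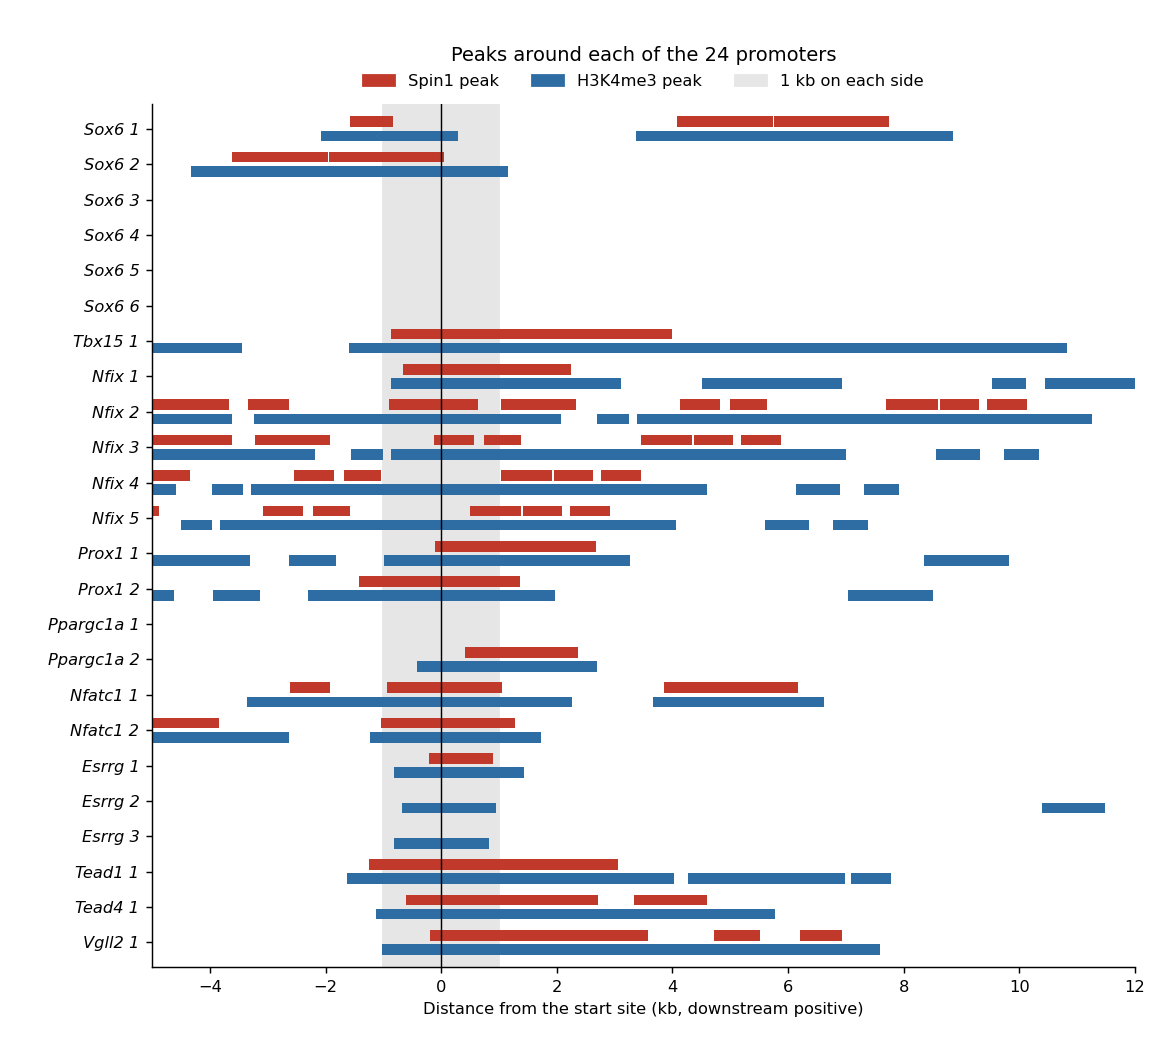
Spin1 (red) and H3K4me3 (blue) peaks around each of the 24 promoters of the 10 genes, in kb from the start site with downstream positive, where the gray band is 1 kb on each side. Both peaks touch the band at 16 promoters, H3K4me3 alone at 3 and neither at 5, and the H3K4me3 peaks of Tbx15, Vgll2 and Tead4 reach far into the gene.

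Start sites closer than 500 bp were joined, which gave 24 promoters for the 10 genes. Both peaks lay at 16 of them, H3K4me3 alone at 3 and neither at 5, and no promoter had Spin1 alone. Several of these promoters share peaks, since both promoters of Prox1 lie under the same pair of peaks and 3 promoters of Nfix lie under 1 H3K4me3 peak. The 6 genes with more than 1 promoter had Spin1 at 12 of 20 promoters (60.0%) and H3K4me3 at 15 (75.0%), beside 49.0% and 66.8% over all promoters of genes with 2 or more. Sox6, Nfix, Ppargc1a and Esrrg had Spin1 at some of their promoters but not all, beside 37.6% of all genes with 2 or more promoters.

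Sox6, the repressor of slow fiber genes, had Spin1 at the first 2 of its 6 promoters. At the first, at chr7:116038744, the Spin1 peak was 743 bp wide with a score of 116.67 and ended 831 bp upstream of the start site, while the H3K4me3 peak of 2374 bp covered the start. At the second, 7.7 kb downstream, the Spin1 peak spanned 1991 bp with a score of 2030.47 and the H3K4me3 peak 5472 bp, chr7:116029896-116035367. The second promoter thus carried the higher Spin1 score of this gene, and its peaks also overlapped the promoter of the antisense gene Sox6os. Peaks have no strand, so these marks cannot be told apart between the 2 genes. The other 4 Sox6 promoters lay 43.7, 192.6, 214.0 and 237.1 kb downstream of the first and had neither peak. The closest peak to any of them was an H3K4me3 peak 34.8 kb from the third.

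Nfix, which switches precursors to the fetal program, had 5 promoters, all with H3K4me3 and 4 with Spin1. The most upstream start site, at chr8:84800368, had a Spin1 peak of 2909 bp and an H3K4me3 peak of 3978 bp, both with a score of 3100. The second, 20.3 kb downstream, had a Spin1 score of 762.86. The last 3, which began 24.5, 27.0 and 27.5 kb downstream of the first, lay under an H3K4me3 peak of 7875 bp, chr8:84768819-84776693, which held 5 separate Spin1 peaks. The scores of these 5, from 88.74 to 227.84, were far below that of the first promoter. The fourth start site had no Spin1 peak in its window, as the closest ones ended 1037 bp upstream and 1031 bp downstream of it. A shift of less than 50 bp in a peak edge would therefore change its call. The Spin1 peak of the fifth began 496 bp downstream of the start, and its center lay in coding exon 2 of the longest curated transcript.

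Ppargc1a, the coactivator of mitochondrial genes, has an upstream start site known to respond to exercise in muscle and a proximal start site 13.8 kb downstream. The upstream start site, at chr5:51567725, had neither peak, and the closest H3K4me3 peak was 13.4 kb away. At the proximal site, at chr5:51553921, the H3K4me3 peak of 3119 bp covered the start, and the Spin1 peak of 1948 bp began 418 bp downstream, in intron 1. A further pair of peaks lay at a predicted start site 547.7 kb upstream of the curated ones. There the H3K4me3 peak, chr5:52112276-52116889, had a score of 3100 and held 2 Spin1 peaks with scores of 697.86 and 106.49. The Spin1 peaks of Ppargc1a thus lay at the proximal start and at a far upstream start known only from predicted transcripts, while the window of the upstream curated start was empty. Another 3 H3K4me3 peaks in the gene, with scores of 101.9, 96.99 and 52.72, lay at neither of these starts and had no Spin1.

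Esrrg, a nuclear receptor that drives oxidative metabolism, had H3K4me3 at all 3 promoters and Spin1 at the first alone. The H3K4me3 peaks were 2250, 1622 and 1648 bp wide and all scored 3100. The Spin1 peak at the first promoter, at chr1:187609006, was 1123 bp wide with a score of 254.35, the narrowest and lowest-scoring best promoter peak of the 10 genes. The second promoter, with start sites at chr1:187651758 and chr1:187652241, lay 41.8 kb from its closest Spin1 peak, the one at the first promoter. The third, at chr1:187997827, lay 223.4 kb from its closest Spin1 peak, a different one at chr1:187773837-187774449. H3K4me3 was thus called at each Esrrg promoter and Spin1 at the first alone, and scores of 3100 do not rank the 3 H3K4me3 peaks.

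Prox1 and Nfatc1, both tied to the slow program, had Spin1 and H3K4me3 at each of their 2 promoters. For Prox1, start sites 1.3 kb apart shared a Spin1 peak of 2781 bp with a score of 1669.5 and an H3K4me3 peak of 4267 bp, chr1:190167554-190171820. The antisense gene Prox1os starts under the same peaks. For Nfatc1, the upstream promoter, from which the inducible short isoform is made, had a Spin1 score of 1301.24 and an H3K4me3 peak of 5627 bp. The promoter 4.9 kb downstream had a Spin1 score of 1724.22 and an H3K4me3 peak of 2961 bp. Spin1 covered 47.8% of the H3K4me3 peak at the upstream promoter of Nfatc1 and 78.4% at the downstream promoter.

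The other 4 genes have a single promoter. Tbx15, the regulator of glycolytic fibers, had a Spin1 peak of 4864 bp and an H3K4me3 peak of 12426 bp, chr3:99252169-99264594, both at a score of 3100. This H3K4me3 peak extended 10834 bp downstream of the start, and Spin1 covered its first part up to 3996 bp downstream. Tead1 had a Spin1 peak of 4303 bp at a score of 3100 and an H3K4me3 peak of 5660 bp. Tead4, the other muscle Tead factor, had a Spin1 peak of 3318 bp with a score of 2808.51 and a second one of 1262 bp under an H3K4me3 peak of 6910 bp. Vgll2, their cofactor, is 5970 bp long, and the whole gene lay inside an H3K4me3 peak of 8623 bp, chr10:52021471-52030093. That peak held 3 Spin1 peaks, with scores of 1964.47 at the start site, 172.09 in coding exon 3 and 106.9 just past the end of the gene. These genes had the 3 widest Spin1 peaks of the 10, at Tbx15, Tead1 and Vgll2.

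The H3K4me3 peaks of several of these genes were wide for their list. Taking the widest promoter peak of each gene, the median over the 10 was 5643.5 bp, beside 3253 bp over the 16207 genes with H3K4me3. Tbx15 was at the 99.5th percentile of these genes, Vgll2 at the 97.7th, Nfix at the 96.5th and Tead4 at the 94.4th. Tead1, Nfatc1 and Sox6 followed at the 88.5th, 88.3rd and 87.1st percentile, and Prox1 was at the 72.6th. Ppargc1a and Esrrg were at the 46.1st and 22.2nd, and these were the only ones of the 10 below the median. For Spin1 the median was 2845 bp, beside 2306 bp over 13267 genes. Tbx15 and Tead1 were at the 96.4th and 93.5th percentile of Spin1 width, Vgll2 and Tead4 at the 88.2nd and 81.3rd, Nfix and Prox1 at the 71.8th and 67.8th, Nfatc1 at the 50.6th, Sox6 and Ppargc1a at the 36.8th and 35.1st and Esrrg at the 8.86th. The wide H3K4me3 peaks of Tbx15, Vgll2 and Tead4 thus stood with Spin1 peaks above the median width of that list. In Nfix the widest peaks lay apart, the Spin1 peak of 2909 bp at the first promoter and the H3K4me3 peak of 7875 bp over later ones. The Spin1 peaks under the latter were 643 to 887 bp wide.

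**Figure D2:**
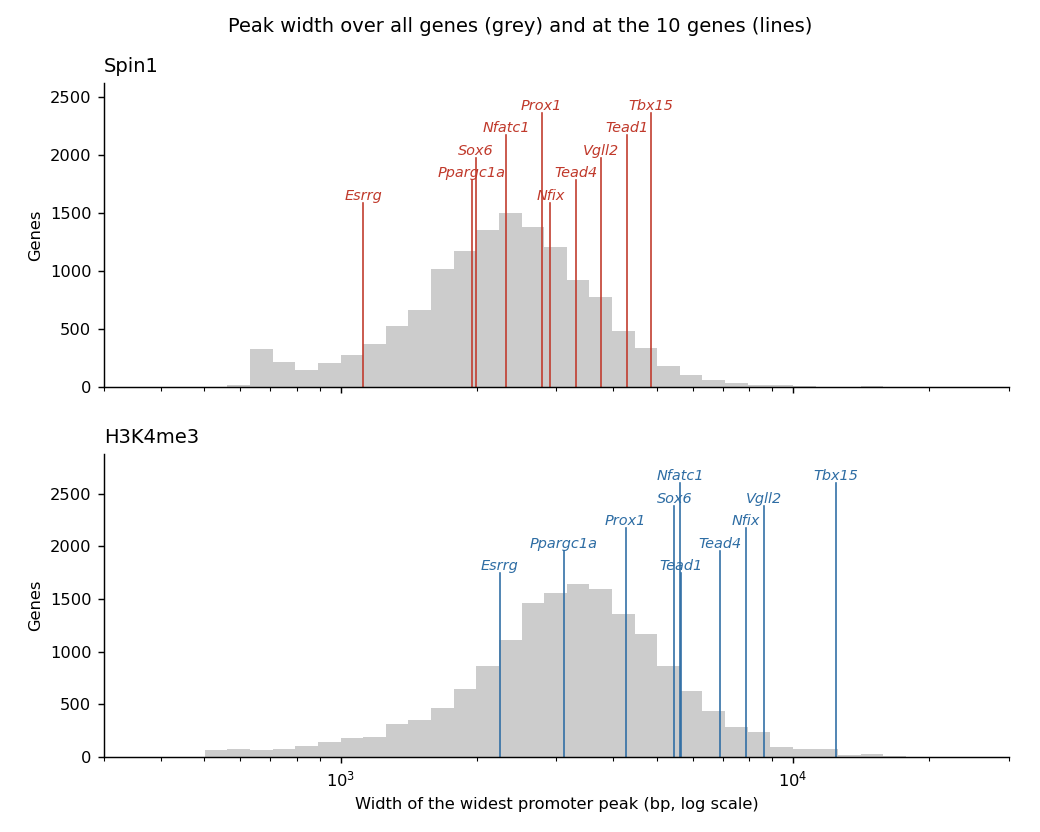
Number of genes by the width of their widest promoter peak, in bp on a log scale, for Spin1 (top) and H3K4me3 (bottom), with a line for each of the 10 genes. Tbx15 lies at 4864 bp for Spin1 and 12426 bp for H3K4me3, and Esrrg at 1123 and 2250 bp.

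The H3K4me3 peaks reached further into the genes than upstream of them. At the 16 promoters with both peaks, the median edges of the H3K4me3 peak were 1411 bp upstream and 2904.5 bp downstream of the start site, beside 1199 and 2131 bp over all such promoters. Its center lay more than 1 kb downstream at 8 of the 16, beside 19.0% of all promoters with both. These 8 were the promoters of Tbx15, Tead1, Tead4 and Vgll2, the first and the third of Nfix, the first of Prox1 and the proximal one of Ppargc1a. The H3K4me3 peaks at the first promoter of Prox1 and the third of Nfix were shared, and their centers lay within 1 kb of later promoters. This comparison was not matched on the width of the H3K4me3 peak. The median edges of the Spin1 peak were 763 bp upstream and 1371 bp downstream, close to the 799 and 1372 bp over all promoters with both. Spin1 covered a median of 61.9% of the H3K4me3 peak, beside 66.2% over all.

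The Spin1 peak held the start site itself at 13 of the 16 promoters, beside 94.1% of all promoters with both. The exceptions were the first promoter of Sox6, the fifth of Nfix and the proximal one of Ppargc1a. The 16 H3K4me3 peaks at the promoters of the 10 genes held 25 Spin1 peaks. There were 2 or more Spin1 peaks in 6 of them, beside 7.01% of all H3K4me3 peaks at a promoter, while 8 held 1 and the 2 downstream peaks of Esrrg held none. The 6 belonged to Sox6, Nfix (2 peaks), Nfatc1, Tead4 and Vgll2. These counts were not matched on the width of the H3K4me3 peak. Close Spin1 peaks were not merged, so 2 peaks need not be 2 separate sites. In Sox6, for example, 1 ended at chr7:116032980 and the next began at chr7:116033012.

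**Figure D3:**
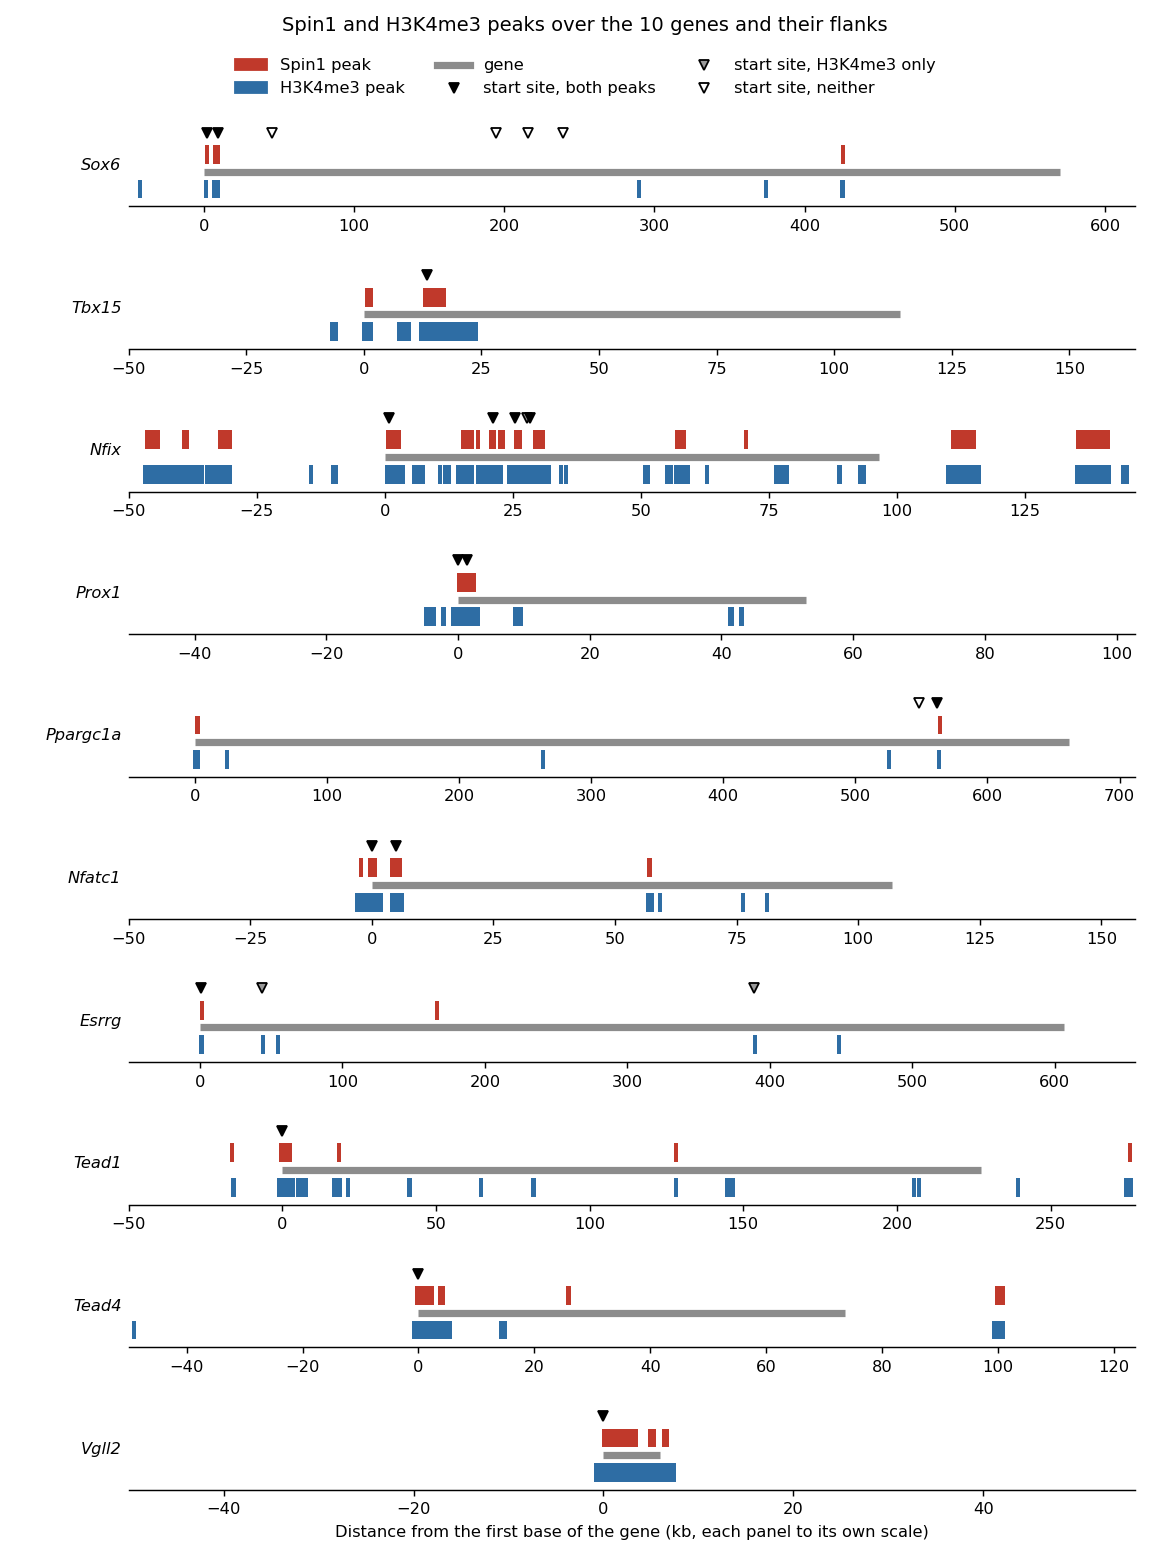
Spin1 (red) and H3K4me3 (blue) peaks over the 10 genes (gray bars) and 50 kb on each side, in kb from the first base of each gene, each panel to its own scale. Triangles mark the promoters, filled where both peaks were found, and narrow peaks are drawn wider than they are so that they can be seen. Nfix holds 13 Spin1 and 18 H3K4me3 peaks, while Sox6, Ppargc1a and Esrrg are empty over most of their length.

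Away from the promoters of any gene, the gene bodies and 50 kb on each side held 24 Spin1 peaks and 57 H3K4me3 peaks. Of the 24 Spin1 peaks, 21 (87.5%) overlapped H3K4me3, beside 72.6% of all Spin1 peaks away from promoters. Several of the 21, in Sox6, Nfix, Nfatc1, Tead4 and Vgll2, lay under an H3K4me3 peak that reached a promoter of the same gene. Others, in Tbx15 and Ppargc1a, lay at predicted start sites. Of the 57 H3K4me3 peaks, 10 (17.5%) overlapped Spin1, beside 17.6% of all H3K4me3 peaks away from promoters. The 10 with Spin1 had a median score of 2532.36 and the 47 without had 169.01, beside 1798.705 and 160.65 over all such peaks. The H3K4me3 peaks away from promoters thus carried Spin1 about as often as those of the whole list, and those with Spin1 had the higher scores in both.

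Of the 46 Spin1 peaks in these loci, 3 overlapped no H3K4me3 peak, beside 8.68% of all Spin1 peaks. They lay in intron 2 of Nfix at chr8:84730451-84731134 with a score of 118.58, in intron 1 of Esrrg at chr1:187773837-187774449 with 82.79 and in intron 1 of Tead4 at chr6:128274545-128275346 with 100.69. These are low scores for the list, and none of the 3 remained among the 50% of peaks with the highest scores.

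Nfix had the most peaks in its body among the 10 genes. Its 96.5 kb held 18 H3K4me3 peaks and 13 Spin1 peaks, or 18.6 and 13.5 per 100 kb, beside medians of 1.47 and 0.918 over the 5216 genes of 50 kb or more. Among these, 4 genes had more H3K4me3 peaks per 100 kb and 1 had more Spin1 peaks. Such densities count called peaks without merging close neighbors, and several Nfix peaks nearly touch, so they are not counts of separate sites. Away from its promoters, a pair of Spin1 peaks with scores of 114.66 and 224.29 lay in intron 2 under an H3K4me3 peak of 3167 bp, chr8:84741613-84744779. A further Spin1 peak of 2577 bp with a score of 739.42 lay in intron 1 under an H3K4me3 peak of 3637 bp, chr8:84783693-84787329. An H3K4me3 peak of 2856 bp without Spin1, centered on exon 7, overlapped the promoter of the gene G430095P16Rik inside Nfix. The flanks of Nfix held 5 Spin1 peaks, all at promoters of neighbors, among them Ier2, Nacc1 with Trmt1, Gadd45gip1 with Dand5, and Calr.

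Tead1 held 13 H3K4me3 peaks in its 227.4 kb but only 3 Spin1 peaks. Besides the promoter, Spin1 lay in intron 1 at chr7:112697159-112698207 with a score of 291.96 and in intron 2 at chr7:112806906-112807623 with 108.58, each under H3K4me3. An intron 1 peak of H3K4me3 with a score of 2756.07, chr7:112719985-112721634, had no Spin1. Upstream of Tead1 by 16.4 kb, a Spin1 peak with a score of 385.92 lay on an H3K4me3 peak with a score of 1039.01. Near the far edge of the downstream flank a Spin1 peak with a score of 103.63 lay at the promoter of Rassf10. Per 100 kb, Tead1 had 5.72 H3K4me3 peaks and 1.32 Spin1 peaks, both below the values of Nfix and above the medians of the long genes.

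Among the other loci, Tead4 had a Spin1 peak with a score of 1067.66 under an H3K4me3 peak of 2217 bp with a score of 3100, at 26.7 kb past the end of the gene. The nearest start site of another gene, 9330102E08Rik, lay 16.6 kb from its center. Nfatc1 had Spin1 in intron 6 with a score of 182.41, under an H3K4me3 peak with a score of 380.57, and Sox6 had Spin1 in intron 7 with a score of 101.94, at chr7:115615603-115616290, under an H3K4me3 peak with a score of 659.44. Prox1 had no Spin1 peak besides that at its promoter, although coding exon 2 carried H3K4me3 with a score of 1825.59. Tbx15 had a further pair of peaks 13.4 kb upstream of its curated start, at a predicted start, with a Spin1 score of 550.7 and an H3K4me3 score of 3100. Between these, an H3K4me3 peak of 2926 bp had no Spin1.

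RefSeq also predicts start sites for these genes that no curated transcript uses, and those more than 1 kb from a curated one formed 16 groups. Both peaks lay at 6 of them, H3K4me3 alone at 3 and neither at 7. The 6 belonged to Sox6 (2), Nfix (2), Tbx15 and Ppargc1a, and those of Sox6 and Nfix were within 2.9 kb of a curated start and under the same H3K4me3 peaks. Of the 6, only the starts of Tbx15 and Ppargc1a had an H3K4me3 peak apart from those of the curated starts. One Sox6 group did have a Spin1 peak outside the windows of the curated starts, chr7:116033012-116034671, with a score of 792.21. Among the 3 groups with H3K4me3 alone, the Esrrg group 9.0 kb from a curated start also had its own H3K4me3 peak, with a score of 212.08.

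The promoter sequences were read for 18 of the 25 start sites, of 6 of the 10 genes, in windows of 250 bases before and 50 after the start. Over 32841 RefSeq promoters the median CpG count of such a window was 22 where both peaks were present, 10 with H3K4me3 alone and 3 with neither. The 2 occupied start sites of Sox6 had 11 and 13 CpG and its 4 empty ones had 2, 2, 2 and 4. The empty start site of Ppargc1a had 5, that of Vgll2, with both peaks, had 21, and those of Prox1 had 25 and 14. Sox6 was the only one of these genes with sequence for both occupied and empty start sites, and there the empty ones had fewer CpG. Esrrg went the other way, with 15 at the start site with Spin1 and 16, 22 and 19 at the 3 with H3K4me3 alone. In Nfix, 2 start sites with both peaks had only 2 and 4 CpG, the second had 13, and the one without Spin1 had 9. CpG count thus did not order the start sites of Esrrg and Nfix by Spin1, and the lowest count of the 18, 2, was found both at empty Sox6 sites and at a Nfix site with both peaks.

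**Figure D4:**
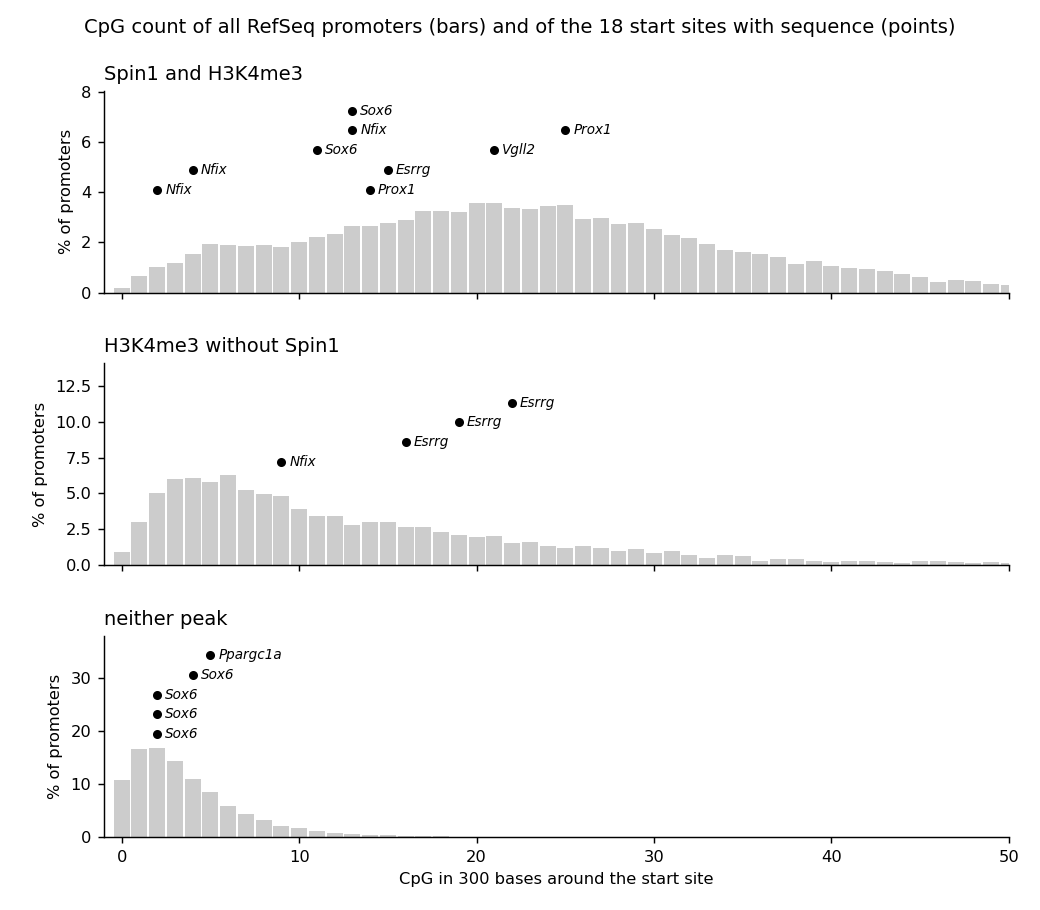
CpG count in 300 bases around the start site, as a percentage of RefSeq promoters with both peaks (top), H3K4me3 alone (middle) or neither (bottom), with a point for each of the 18 start sites with sequence, which belong to 6 of the 10 genes. The height of a point has no meaning. The empty Sox6 sites lie at 2 to 4 and the Esrrg sites with H3K4me3 alone at 16 to 22.

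Binding motifs of the factors that these genes encode or work with were counted on both strands of the same windows, and matches of different motifs may share bases. The E-box of myogenic factors, CANNTG, was in 13 of 18 windows, beside 72.3% of all promoters, the NFAT core GGAAA in 14 beside 61.4%, the NFI core TTGGC in 8 beside 46.7% and the Sox core ACAAT in 6 beside 31.0%. The TEAD motif CATTCC was in 3, beside 14.7%, and the T-box motif AGGTGTGA in none, beside 1.28%. The 2 rarer matches were the estrogen-related receptor motif AAGGTCA, in 4 windows beside 4.72%, and the MEF2 motif, CTA and TAG separated by 4 bases, in 2 beside 3.69%. The MEF2 motif lay 22 bases upstream of the first start site of Esrrg, as CTATTTATAG, and 106 bases upstream of the second start site of Sox6, as CTATTTCTAG. The AAGGTCA motif lay in this same Sox6 window, 75 bases upstream, in the window of 1 empty Sox6 start site and in those of 2 Nfix start sites. Windows of the same gene are not independent, and a match is a description of the letters and not of a bound factor.

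The families of the 10 genes and their partners were read in the same way. Of 21 family members 17 had both peaks at a promoter, beside 56.7% of protein-coding genes. Tbx22, Prox2 and Esrrb had H3K4me3 alone and Vgll1 had neither. Of 20 partners and other fiber type regulators 18 had both, with H3K4me3 alone at Mafa, a large Maf factor, and neither at Perm1, a regulator that acts with Ppargc1a in muscle. Wide Spin1 promoter peaks in these lists included those at Ppargc1b with 6384 bp, Wwtr1 with 5845, Vgll4 with 5505, Nfib with 5410 and Vgll3 with 5088. Each of these was wider than the widest of the 10 genes, 4864 bp at Tbx15. Within families, Ppargc1b was wider than Ppargc1a (1948 bp), and Sox5 with 665 bp was narrower than Sox6 (1991 bp). Nfatc3 with 4649 bp and Nfat5 with 2970 bp were wider than Nfatc1 (2321 bp), while Nfatc2 with 871 bp and Nfatc4 with 1589 bp were narrower.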

How the data were processed

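Chromatin immunoprecipitation was performed in primary myoblasts with an antibody against Spin1 and one against H3K4me3, and sequenced with 12 cycles of amplification. Paired-end reads were mapped by the authors with Bowtie2 against mm10, and peaks were called with MACS 1.4.2 over the input and kept at a false discovery rate of up to 1%. The authors deposited the position of each peak and its score, −log10 of the MACS p-value multiplied by 10. Duplicate reads and the input enter this score, and neither they nor the depth can be seen in the lists, so no interval for counting error can be given.

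Starts were converted to count from 1 and compared with RefSeq annotation release 108.20200622 on GRCm38, using pandas 2.3.3. A promoter was 1 kb on each side of a curated start site, start sites under 500 bp apart were joined, and an overlap of 1 bp counted. Flanks were 50 kb. A percentile is the share of genes whose widest promoter peak was narrower. The overlap code was tested on simulated data. No test was run, since there was 1 library for each antibody. All 10 genes are named, and of the lists the genes lacking a peak and those among the 6 with the widest Spin1 peak. A few list genes and neighbors are not reported here. The family comparisons, the markers and the neighbors given with a flanking peak were named beside these. The genes and lists were chosen with earlier results of these data known. Alternatives were other windows, score limits, rules for overlap, transcripts and flanks.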

Additional observations from a re-analysis of the deposited data

How the results depend on the processing

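No paired analysis was possible because each antibody was used on a single library. Of 69 alternatives over 12 results, 44 stayed within 1.5 times the reported count or within its 95% binomial interval and 25 did not. With the center of the peak required to lie in the promoter window, 6 of the 10 genes had Spin1, 5 H3K4me3 and 5 both, 10 promoters had Spin1 and 10 H3K4me3, 11 family members had Spin1, and 46.5% and 50.5% of all genes had Spin1 and H3K4me3. This alternative drops peaks whose center lies over 1 kb from the start site on either side. With the 50% of each list with the highest scores, 10 promoters of the 10 genes had Spin1, 38.1% and 56.6% of all genes had Spin1 and H3K4me3, and in the bodies and flanks outside the promoters of the 10 genes, but with those at promoters of other genes, 4 of 30 Spin1 peaks and 15 of 63 H3K4me3 peaks were left, with 0 Spin1 peaks without H3K4me3. Adding predicted transcripts gave 27 promoters with Spin1 and 32 with H3K4me3, and 38.4% and 48.4% of all genes. Flanks of 100 kb gave 47 Spin1 peaks outside these promoters and 5 without H3K4me3. The shares of all genes were 50.1% and 61.2% at 0.5 kb and 51.4% and 63.0% at 2 kb on each side, and 61.0% for H3K4me3 at a score of at least 100. The depth of the libraries, which is unknown, limits what a missing peak can show, and with 1 library for each antibody no replicate could be left out.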
